A study of Homo sapiens with 14 samples.

Results

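By estimated abundance, 22 genes of IMR90 lung fibroblasts had another top transcript in replicatively senescent than in proliferating cells, in both of the isolates sampled. Of these, 14 also met the rule below by their shares of assigned reads. In PIGQ and ADNP2, which rest on 3 reads or fewer, a change in both isolates was not detectable at this depth. They were found among 8024 protein-coding genes with at least 200 estimated reads in each of 4 tables (I79 young, I79 old, I10 young and I10 old). The rule asked for 1 top transcript shared by both young tables and another shared by both old tables, ranked by TPM (an abundance scaled to the whole table that allows for transcript length). It also asked that the share of the young top transcript in its gene's summed TPM fall by at least 25 percentage points in each isolate. Of the 8024 genes, 218 had such a consistent change of the top transcript and 22, or 0.274%, also met the limit on the fall. The members were thus chosen by the measured shares of old and young cells, which are given as a description, and no test is run on them.

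IMR90 is a line of human fetal lung fibroblasts with a limited lifespan in culture, and I79 and I10 are isolates of it. Young cells were proliferating, and old cells had been passaged until replicative exhaustion. A further group of I79 cells received ICM (inflachromene, a compound that binds HMGB1 and HMGB2; dose and time are not in the labels), and an HMGB2_KD group, made with siRNA against the chromatin protein HMGB2, stood against WT cells. The labels give neither the isolate of the WT and HMGB2_KD libraries nor whether WT cells received a control siRNA. Each old or young group has 2 samples in the labels but 1 table, which holds 1 value per transcript, so the only spread among old or among young cells is that between the 2 isolates. These tables held 14991385 to 20632959 estimated reads, the ICM libraries 10971132 and 13290131 reads, and the WT and HMGB2_KD libraries 33561766 to 41168932 counts. All 8 fibroblast markers (COL1A1, COL1A2, COL3A1, PDGFRB, THY1, VIM, LUM and DCN) were present, with a summed level of 11939 to 16520 TPM over the 4 tables. The 3 epithelial markers summed to 0.302 to 0.643 TPM and the 2 endothelial markers found to 0.0844 to 0.484 TPM, each below 1 TPM in every table. Of the 3 leukocyte markers, PTPRC and CD3E were below 1 TPM while CD68, a lysosomal protein, stood at 26.8 and 29.1 TPM in the young and at 180 and 91.4 TPM in the old tables. The 2 smooth muscle markers MYH11 and DES summed to 1.47 to 14.3 TPM and were lower in both old tables. The part of CD68, MYH11 and DES in the results was not tested.

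A gene can make several messenger RNAs by starting at another promoter, by splicing other exons together, or by ending at another site of cleavage and polyadenylation. Such choices can change the protein, as when an exon within the coding sequence is skipped, or only the untranslated ends, which bear on stability, location and translation. Splicing is steered by SR proteins and hnRNPs that bind the nascent RNA, and messages with an early stop codon can be removed by nonsense-mediated decay. A transcript's share does not depend on the total of its gene, but in bulk RNA a change of the transcript made in each cell and a change in the mix of cells cannot be told apart.

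Some of these changes can be placed at an annotated splice junction that separates the young from the old top transcript. Reads across junctions were not counted, and the shares of each form given below are sums of estimated TPM. Young and old form name the form in the young and in the old top transcript. They do not mean that this form led in every table: the old form of PLEKHM2 held 62.1% in I10 young. The sequences below are the 15 exon bases before and the 15 after that junction, for 5 genes whose coding sequence differs by an exon or an exon end, read on the strand of the gene from the GRCh37 genome at the exon ends of GENCODE release 44. Lower case letters are the exon end shared by both forms, and capitals are the bases that follow it in that form. Each run was found only in transcripts of its own gene.
ATP5F1C young form, intron chr10:7844818-7848936, plus strand: tggtgctgcagctctGGATTAATGAAAATC
ATP5F1C old form, intron chr10:7844818-7849621, plus strand: tggtgctgcagctctGTAAAGAAGGAAAAT
KIF23 young form, intron chr15:69732827-69737128, plus strand: ccatcacctgtgcctTTACTCTTTCAACCT
KIF23 old form, intron chr15:69732827-69733106, plus strand: ccatcacctgtgcctCTTTCTAGTAACTAT
EPB41L2 young form, intron chr6:131201347-131206235, minus strand: ctcattgaaggaaagAAAAATTCCTTGAGA
EPB41L2 old form, intron chr6:131191267-131206235, minus strand: ctcattgaaggaaagAGTTCACATGAGACT
PLEKHM2 young form, intron chr1:16046416-16051811, plus strand: ccccatctagtgaggATGGAGACCTCACAG
PLEKHM2 old form, intron chr1:16046416-16047823, plus strand: ccccatctagtgaggATTATGATTTTGGAG
BRD1 young form, intron chr22:50181536-50187681, minus strand: aggcgggcgaggaagGAGATAAATCTCCCC
BRD1 old form, intron chr22:50181143-50187681, minus strand: aggcgggcgaggaagTCCTTCCGAGGTTGG

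Across the 22 genes the smaller of a gene's 2 falls had a median of 28.8 points and ranged from 25.4 (ZNF326) to 55.4 (GAS2L1). The young top transcript differed between the isolates by a median of 4.83 points in young and 5.38 points in old cells. The fall was larger in I79 for 16 genes and in I10 for 6. Where the lost share went varied: the old top transcript gained at least 25 points in both isolates in 7 genes and less than 10 points in both in 2 (LUC7L3 and IQSEC2). The old top transcript exceeded its young shares in both old tables in 21 genes, the exception being IQSEC2. As a measure of the spread, a top transcript differed with a fall of at least 25 points in 190 genes (2.37%) of I79 and in 137 (1.71%) of I10 when old was set against young. The same counts were 129 (1.61%) when young I10 was set against young I79 and 98 (1.22%) when old I10 was set against old I79. A change of this size was thus also seen between isolates of the same age.

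**Figure D1:**
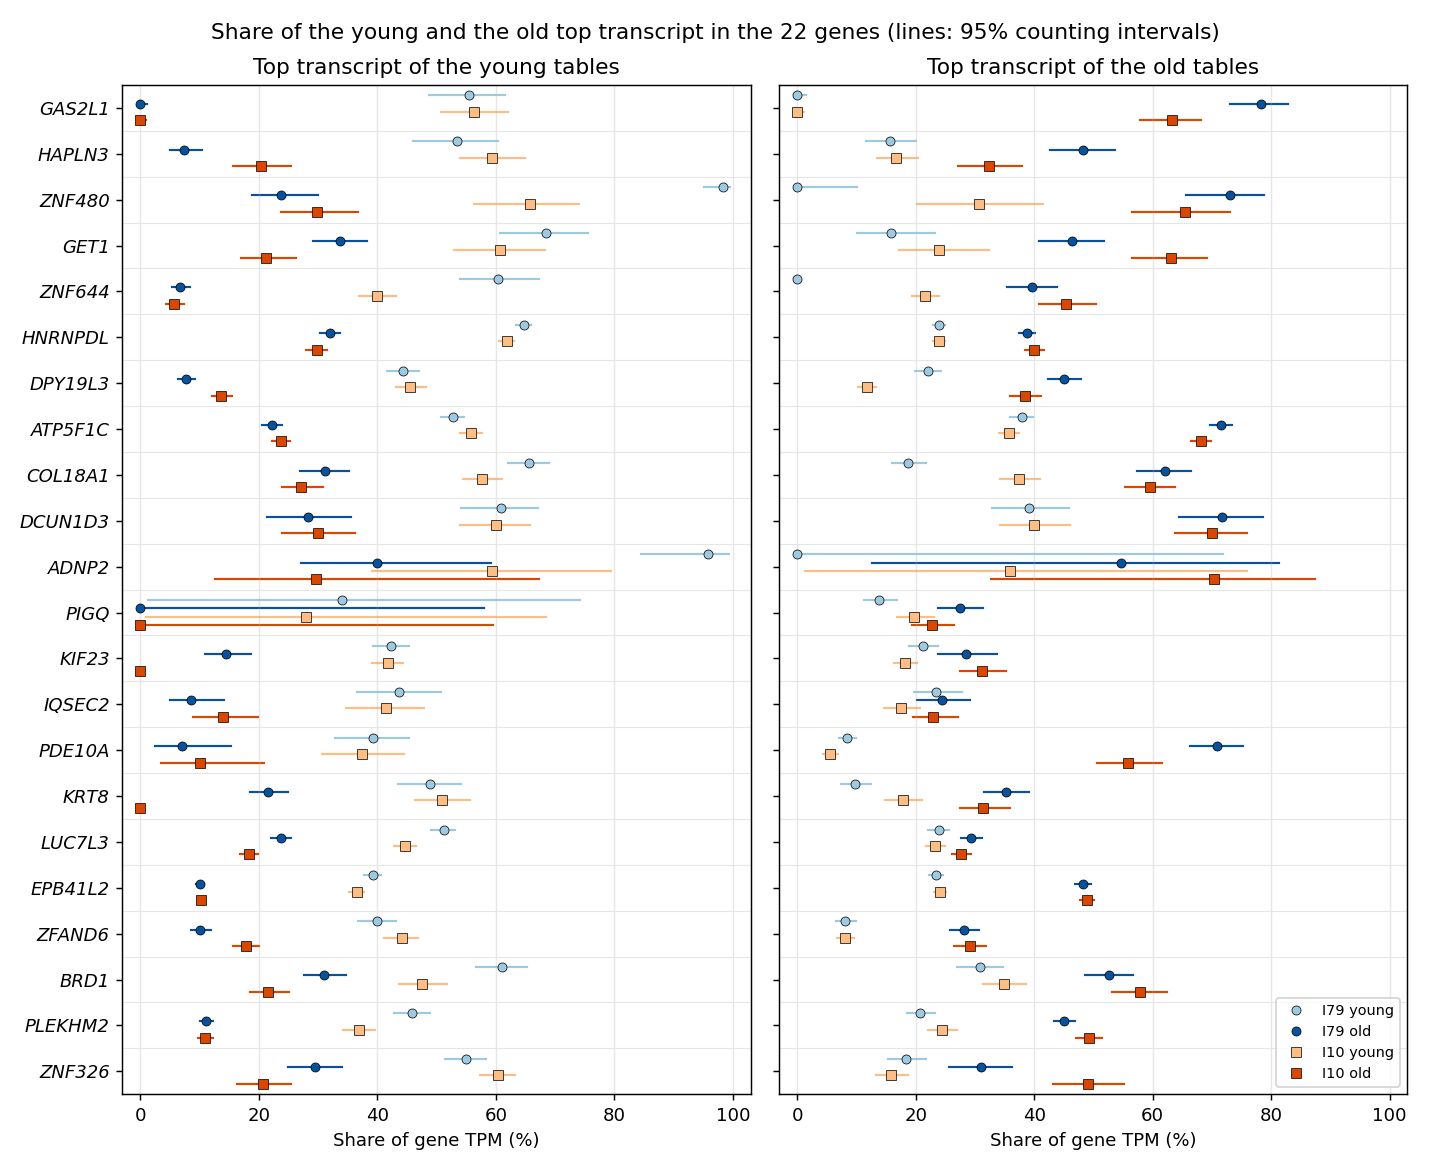
Share of the gene's TPM (x axis, percent) held by the top transcript of the young tables (left) and of the old tables (right) in the 22 genes, ordered by the smaller fall; circles are I79 and squares I10, pale symbols young and dark symbols old, and lines are 95% counting intervals. On the left all young symbols lie to the right of the old ones, and the widest intervals belong to ADNP2 and PIGQ, whose short transcripts carried 3 reads or fewer.

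In ATP5F1C, the gamma subunit of the mitochondrial ATP synthase, the form that skips 1 exon was on top in old cells. Its young top transcript ATP5F1C-202 held 52.7% of the gene's TPM in I79 young (95% interval 50.8 to 54.7) and 55.8% in I10 young, and 22.2% in I79 old and 23.8% in I10 old. The isolates were 3.04 points apart when young and 1.56 points when old, and both old shares lay below both young shares. ATP5F1C-201 rose in turn from 37.9% and 35.7% to 71.5% and 68.1%. The difference is a 37-base exon at chr10:7848937-7848973 (GRCh37), near the end of the coding sequence, whose skipping is known as the form of this subunit in muscle. Transcripts that include it held 61.3%, 26.6%, 63.9% and 30.1% of the TPM of both forms in I79 young, I79 old, I10 young and I10 old. The annotated coding sequences have 298 codons with the exon and 297 without it. The gene had 2282 to 3087 reads in each table.

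Of the other members with roles in membranes and metabolism, GET1 and DPY19L3 changed the start of the message and kept the coding sequence. GET1 (chr21:40749624-40800454), a membrane receptor for the insertion of tail-anchored proteins, had its young top transcript GET1-201 at 68.4% and 60.7% in the I79 and I10 young tables and at 33.7% and 21.3% in the old ones. The old top transcript GET1-203 starts 7307 bases upstream and ends 773 bases earlier, and it keeps the coding sequence of 140 codons. Transcripts with that coding sequence held 80.0% to 84.7% of the TPM in all 4 tables, so the change lay in the ends of the message. The top transcripts of GET1 share 23.8% (young) and 54.1% (old) of their bases with the readthrough gene GET1-SH3BGR, so its reads could not be assigned with certainty. DPY19L3 (chr19:32896449-32976801), which attaches mannose to tryptophan residues, kept a coding sequence of 716 codons while the first exon moved 355 bases downstream. DPY19L3-202 stood at 44.3% and 45.6% in the young and at 7.75% and 13.7% in the old tables.

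PDE10A (chr6:165740778-166401536) is a phosphodiesterase that breaks down cyclic nucleotides, and PIGQ (chr16:616995-634109) is part of the enzyme that starts GPI anchors. Both had a short transcript with no defined coding sequence on top in young cells. PDE10A-202 (798 bases, 3 exons, no coding sequence defined) held 39.2% and 37.5% in the young and 6.96% and 10.1% in the old tables. The coding transcript PDE10A-201 (505 codons) held 8.47% and 5.51% in the young and 70.9% and 55.9% in the old tables, a gain of 62.4 and 50.4 points. Both start within 35 bases of each other and end 581487 bases apart, and transcripts sharing the distal end rose from 9.92% and 8.45% to 90.0% and 84.8%. The short form overlaps LINC00602 on the opposite strand over 46.6% of its length, and the use of strand is not given in the sources used here. In PIGQ the young top transcript, PIGQ-223, is 100 bases long and carried 1 read in each young table and none in the old ones. Its shares of 34.0% and 27.9% had intervals of 1.28 to 74.3% and 0.97 to 68.5%, and the old values of 0 allowed up to 58.0% and 59.6%, so a change was not detectable at this depth.

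KIF23, EPB41L2, GAS2L1, KRT8 and PLEKHM2 are parts of the cytoskeleton, its linkers or its motors and their adaptors, and IQSEC2 acts in membrane traffic. KIF23 is the kinesin of the centralspindlin complex in cytokinesis. Its short form KIF23-202 (856 codons) held 42.4% in I79 young and 41.8% in I10 young, and 14.5% and 0% in the old tables, while KIF23-201 (960 codons) went from 21.2% and 18.2% to 28.5% and 31.2%. The longer protein includes a 312-base exon (104 codons) at chr15:69733107-69733418, known for binding actin. Transcripts that skip it made up 73.1% and 74.3% of both forms in the young and 55.2% and 44.3% in the old tables. The gene total fell at the same time, from 1013 and 1323 reads to 290 and 503, so the old shares rest on fewer reads.

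EPB41L2, a protein 4.1 that ties spectrin and actin to the membrane, had 4547 to 7304 reads in the 4 tables. Its top transcripts differ by 2 neighbouring coding exons of 147 and 63 bases at chr6:131199244-131199390 and chr6:131201284-131201346, together 70 codons. Transcripts with both exons held 53% and 51.2% of the 2 forms in the young and 15.3% and 16.3% in the old tables. EPB41L2-201 itself fell from 39.2% (interval 37.8 to 40.6) to 10.1% (9.44 to 10.8) in I79 and from 36.5% to 10.3% in I10, while the isolates differed by 2.68 points when young and 0.229 points when old. PLEKHM2, an adaptor between lysosomes and kinesin, had a further exon in its old top transcript. Transcripts that skip its 60-base exon (20 codons, chr1:16047824-16047883) made up 51.0% and 37.9% of both forms in young and 13.1% and 12.4% in old cells, and PLEKHM2-201 fell from 45.9% and 36.9% to 11.1% and 10.9%.

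GAS2L1 (chr22:29702608-29708776), a linker of actin filaments and microtubules, had the largest smaller fall of the 22 genes, but between nearly identical messages. GAS2L1-207 (2481 bases) and GAS2L1-210 (2482 bases) have the same coding sequence and end, and differ in the 5' leader alone, by the ends of 1 intron and a start 6 bases away. GAS2L1-207 had 55.4% and 56.4% in young cells and no read in old cells (0 of 324 and 0 of 355 reads, which allows up to 1.1% and 1.03%). GAS2L1-210 had no read in young cells and 78.2% and 63.2% in old cells. Transcripts with this coding sequence held 70.2% to 82.5% in every table, with no separation of old from young. The reads of such similar transcripts are assigned by estimation, and the part of that step was not tested. KRT8 (chr12:53290971-53343738), a keratin of simple epithelia, had KRT8-201 at 48.9% and 51.0% in the young and 21.6% and 0% in the old tables. KRT8-216, which begins 43224 bases upstream, rose from 9.72% and 17.8% to 35.3% and 31.4% with the same 483 codons. Transcripts sharing the start of KRT8-216 went from 51.1% and 47.0% to 71.6% and 69.1%. In I79 young they thus already held more than KRT8-201. The old tables of KRT8 were 21.6 points apart for the young top transcript, the widest spread between old tables among the 22 genes, followed by KIF23 at 14.5 points. IQSEC2 (chrX:53255010-53350548), an exchange factor for the small GTPase ARF6, lost a short transcript (IQSEC2-209, 73 codons), from 43.7% and 41.5% to 8.57% and 14%. Its old top transcript IQSEC2-217 (1154 codons) moved only from 23.5% and 17.5% to 24.4% and 23.0%, and it took the top rank with the fall of the other.

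Another 3 members act in RNA processing. HNRNPDL is an hnRNP that binds AU-rich RNA. Its young top transcript HNRNPDL-206 held 64.7% (interval 63.5 to 66.0) and 61.9% in the young and 32.0% and 29.8% in the old tables, on 3300 to 5883 reads. The old top transcript HNRNPDL-204 rose from 24.0% and 23.9% to 38.8% and 40.0%. Both encode 301 codons, and the old one keeps an intron after the coding sequence (chr4:83346037-83347189) that the young one has spliced out. Transcripts with the intron spliced made up 74.6% and 73.9% of both forms in young and 50.5% and 46.0% in old cells. LUC7L3 (chr17:48796926-48833580), a protein associated with the U1 snRNP, had LUC7L3-201 at 51.2% and 44.7% in young and 23.8% and 18.4% in old cells. Its old top transcript LUC7L3-202 gained 5.55 and 4.39 points only, ends 1092 bases earlier and has 489 instead of 432 codons. ZNF326 (chr1:90460669-90501092), a zinc finger protein of a complex that couples RNA polymerase II to splicing, changed from a coding transcript to one annotated for nonsense-mediated decay. ZNF326-201 fell from 54.9% and 60.4% to 29.5% and 20.7%, and ZNF326-204 (53 codons) rose from 18.4% and 15.9% to 31.0% and 49.1%.

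The extracellular matrix is represented by 2 members. COL18A1 (chr21:46875436-46933634), the basement membrane collagen whose C-terminal fragment is endostatin, changed to a top transcript with another annotated start. COL18A1-202 (1519 codons) held 65.6% and 57.7% in young and 31.1% and 27.2% in old cells, and COL18A1-201 rose from 18.7% and 37.5% to 62% and 59.6%. The old top transcript is annotated from 34753 bases downstream, and its model, with 687 codons, is marked as incomplete. Its annotated start may thus not be a start of transcription. With incomplete transcripts left out, COL18A1 did not meet the rule. Both overlap exons of SLC19A1 on the opposite strand, over 26.5% of the young and 46.2% of the old form, and reads of the 2 genes there cannot be told apart without strand. HAPLN3 is a link protein of hyaluronan and proteoglycans. HAPLN3-201 (360 codons) fell from 53.4% and 59.4% to 7.41% and 20.4%, and HAPLN3-202, annotated for nonsense-mediated decay, rose from 15.6% and 16.7% to 48.2% and 32.3%. The latter holds a 1193-base exon at chr15:89422649-89423841. Transcripts that splice over that exon made up 78.7% and 79% of both forms in young and 29.7% and 53% in old cells. The interval of each young share lay above those of both old shares.

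A further 4 members bind DNA or chromatin. BRD1, a scaffold of the HBO1 histone acetyltransferase complex, changed both its first exon and a splice acceptor. BRD1-203 (1189 codons) fell from 61.0% and 47.6% to 31.0% and 21.6%, and BRD1-202 (1058 codons, start 1973 bases downstream) rose from 30.8% and 34.9% to 52.6% and 57.8%. The acceptor used by the young form adds 393 coding bases, and transcripts with it made up 66.4% and 57.7% of the TPM of both forms in young and 37.1% and 27.2% in old cells. The zinc finger gene ZNF644 (chr1:91380855-91487829) kept its 1327 codons while the first exon moved 562 bases, with ZNF644-201 at 60.4% and 40.0% in young and 6.68% and 5.74% in old cells. ZNF644-204 had 0% in I79 young but 21.6% in I10 young, so the young isolates differed by 20.4 points in the young top transcript. ZNF480 (chr19:52800422-52829175), a KRAB zinc finger gene, fell from 98.3% and 65.7% to 23.8% and 29.8% for ZNF480-205 (535 codons). Its old top transcript ZNF480-206 is 559 bases long with an incomplete coding sequence, and it carried 0 and 17 reads in young and 47 and 37 reads in old cells. By reads ZNF480-205 still held 75.2% and 78.2% in the old tables. ADNP2 (chr18:77867146-77905406), a homeobox zinc finger gene, met the rule through a 124-base transcript, ADNP2-205, with 2 and 3 reads in the old tables. By reads ADNP2-201 held 99.5%, 97.8%, 98.8% and 99.3% in I79 young, I79 old, I10 young and I10 old. The intervals of the TPM share of ADNP2-201 were apart in I79 (84.5 to 99.4% young, 27.1 to 59.2% old). Those of ADNP2-205 overlapped there (0 to 71.8% young, 12.7 to 81.4% old). In I10 the intervals of ADNP2-201 overlapped as well (39.1 to 79.4% young, 12.6 to 67.3% old). A change in both isolates was thus not detectable at this depth.

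The last 2 members act on ubiquitin and its relatives. DCUN1D3 (chr16:20866247-20911680), a cofactor of cullin neddylation, has 2 annotated transcripts, so that the loss of the young one is the gain of the other. DCUN1D3-202 held 60.9% and 60% in young and 28.3% and 30.0% in old cells. The old form starts 31378 bases upstream and ends 4071 bases further downstream, with the same 304 codons. ZFAND6 (chr15:80351910-80430735), a zinc finger protein that binds ubiquitin, had ZFAND6-213 at 39.9% and 44.1% in young and 10.1% and 17.8% in old cells. Transcripts sharing its start fell from 59.3% and 61.7% to 21.1% and 27.8%. The old top transcript starts 12864 bases upstream, and transcripts with the common coding sequence of 208 codons stayed at 92.7% to 95.1% in the 4 tables.

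**Figure D2:**
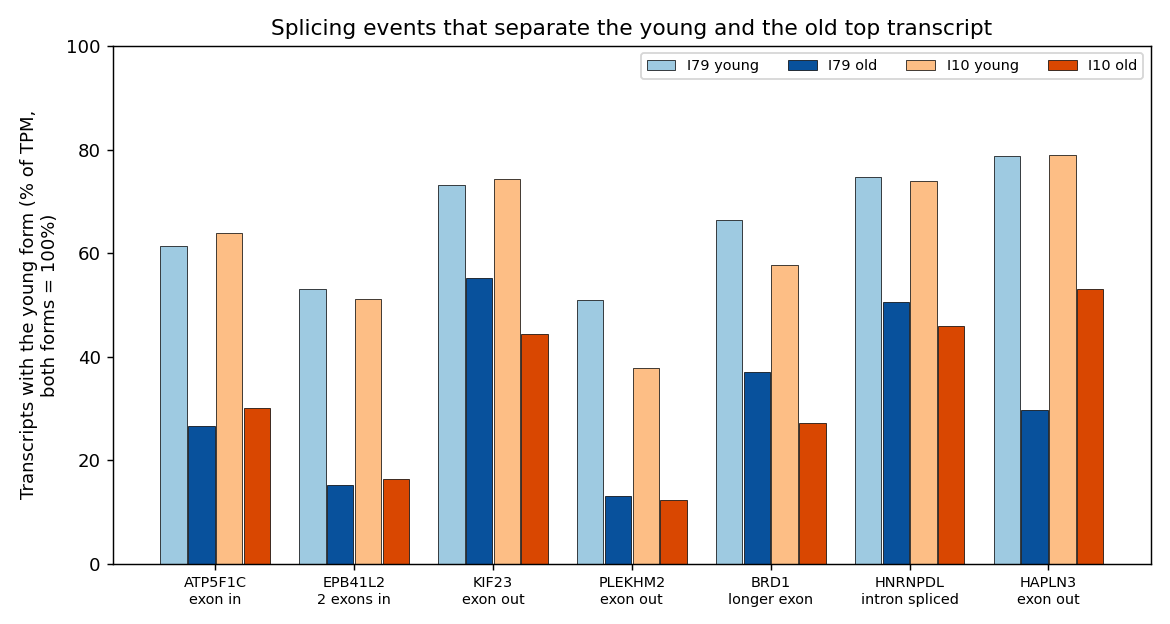
Percent of TPM (y axis) from transcripts with the form of the young top transcript, of all transcripts with either form, for 7 splicing events; pale and dark blue bars are I79 young and old, pale and dark orange bars I10 young and old. Every young bar is higher than the old bar of its isolate, from 61.3% to 26.6% for the 37-base exon of ATP5F1C in I79 and from 73.1% to 55.2% for the skipping of the 312-base exon of KIF23 in I79.

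By structure the 22 changes fell into 5 classes. The coding sequence was the same in 8 genes (GAS2L1, GET1, ZNF644, HNRNPDL, DPY19L3, DCUN1D3, KRT8 and ZFAND6). It changed with the same start, meaning within 100 bases, in 6 (ZNF480, ATP5F1C, KIF23, LUC7L3, EPB41L2 and PLEKHM2) and with another start in 4 (COL18A1, ADNP2, IQSEC2 and BRD1). With a tolerance of 50 bases these counts were 3 and 7, since the starts of KIF23, EPB41L2 and PLEKHM2 lie 58, 77 and 70 bases apart. All starts are those annotated in GENCODE release 44, and the old top transcripts of COL18A1 and ADNP2 are marked as incomplete. The lengths used for the abundances differ from that release for EPB41L2-201 (4457 against 4380 bases) and PLEKHM2-202 (4122 against 4134 bases). Their starts may thus differ from those given here. In 2 the change was from a coding transcript to one annotated for nonsense-mediated decay (HAPLN3 and ZNF326). In 2 it was from a transcript with no defined coding sequence to a coding one (PIGQ and PDE10A). The top transcripts had the same start in 11 genes (50%), the same end in 13 (59.1%) and the same coding sequence in 8 (36.4%). Between the 2 most abundant transcripts of 7687 genes of the same table, the starts agreed in 42.8%, the ends in 33.7% and the coding sequences in 11.1%. Both were annotated as protein coding in 81.8% of the 22 and 57.7% of the 7687. The pairs were chosen in unlike ways, so these percentages are not a like comparison. In the 7687 genes the second transcript needed no minimum share and did not have to lead in any table. The old top transcript was longer in 13 genes and shorter in 9, and in 8 it started over 1000 bases away. The members lay on 13 chromosomes with at most 3 on any of them. Among the 8 genes that kept the coding sequence, transcripts with that sequence moved by less than 15 points in 7. KRT8 was the exception with 37.4 points, from 68.8% in I10 young to 31.4% in I10 old. Of the other 7, ZNF644 and DPY19L3 moved most, by up to 14.1 and 13.5 points. In ZNF644 this share fell from 60.4% and 61.6% in young to 46.3% and 51.2% in old cells. In DPY19L3 it fell from 66.3% and 57.4% to 52.8% and 52.1%.

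The share by TPM gives weight to short transcripts, since few reads on a short transcript stand for many molecules. By the share of assigned reads, 14 of the 22 genes still met the same rule. The smaller fall by reads was 57.4 points for GAS2L1, 49.7 for ZNF644, 40.2 for DPY19L3 and 33.2 for both ATP5F1C and EPB41L2. It was 20.2 points for LUC7L3, 20 for DCUN1D3, 15.4 for ZNF480, 12.7 for PDE10A and 12.2 for IQSEC2. For PIGQ it was 0.245 and for ADNP2 it was -0.5, a rise. In DCUN1D3, PDE10A and IQSEC2, as in PIGQ, the old top transcript already held more reads than the young one in both young tables. It held 67.7% and 68.5% in DCUN1D3, against 32.3% and 31.5%. For PDE10A this was 37.3% and 25.8% against 13.5% and 13.8%, and for IQSEC2 64.2% and 55.6% against 15.8% and 17.5%. GET1 fell by 27.9 points, but GET1-201 still held 54.3% of reads in I79 old, so GET1 did not meet the rule. In 19 genes both top transcripts had at least 50 reads in both tables of their age.

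**Figure D3:**
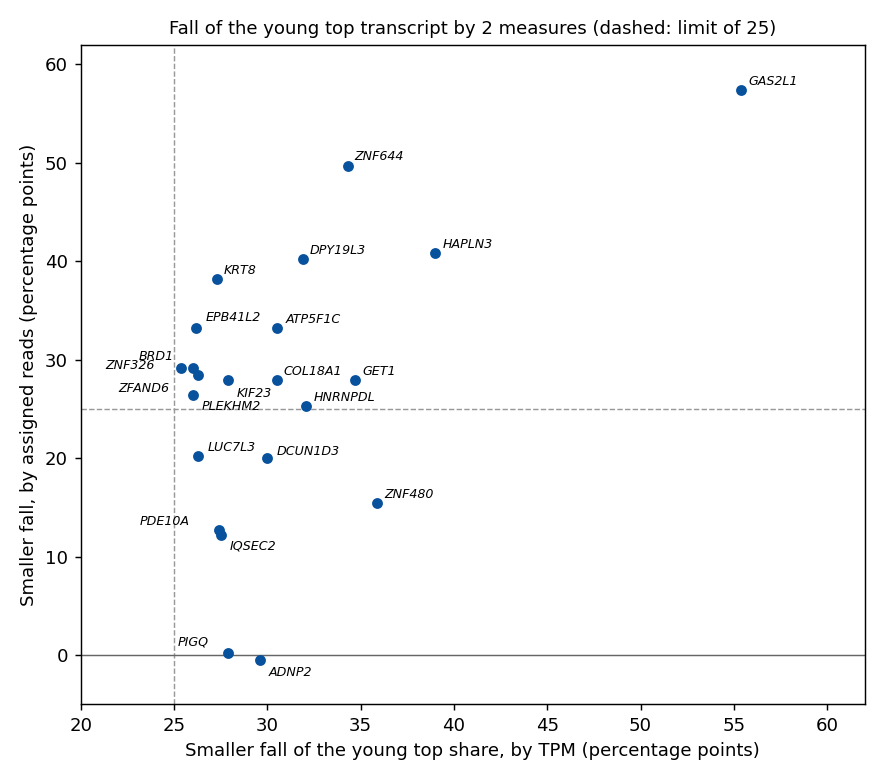
Smaller of the 2 isolates' falls of the young top transcript's share, by TPM (x axis) and by assigned reads (y axis), both in percentage points, with 1 point per gene and dashed lines at 25. GAS2L1 lies highest at 55.4 and 57.4 points, and PIGQ and ADNP2 lie close to 0 on the read scale.

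The 3 genes just inside the limit were BRD1, PLEKHM2 and ZNF326, with smaller falls of 26.0, 25.9 and 25.4 points. The 3 just outside were MYLK, PPP4R3B and R3HCC1L, with smaller falls of 24.0, 22.2 and 21.5 points. MYLK, the myosin light chain kinase of smooth muscle and nonmuscle cells, is the best covered of them, with 16792 to 24926 reads. Its short transcript MYLK-215 went from 61.5% and 63.0% to 31.2% and 38.9%, so it missed the limit in I10 alone.

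The totals of the members moved in both directions between young and old. The log2 ratio of old to young CPM (reads scaled to the table's total) was past 0.6 in both isolates and lower in 6 of the 22 genes, and higher in 1. Of all 8024 genes, 14.7% were lower and 6.61% higher in this way, and the median ratio was -0.20 both for the 22 and for all. KIF23 went from 67.6 and 72.5 CPM in the young to 14.6 and 24.4 CPM in the old tables (log2 -2.20 in I79 and -1.57 in I10). COL18A1 fell from 68.6 and 56.1 to 22 and 25.7 CPM, ZNF326 from 55.2 and 57.8 to 23.5 and 15.7 CPM and ZNF480 from 25.5 and 24.8 to 12 and 12 CPM. By summed TPM, which gives short transcripts more weight, ZNF480 instead stood at 8.83 and 12.3 TPM in young and 13.2 and 11.2 TPM in old cells, so its direction depended on the scale. HNRNPDL (339 and 322 to 221 and 160 CPM) and ZNF644 (50 and 53.3 to 32.4 and 29.1 CPM) were the others that were lower. On the TPM scale 5 genes were lower and 1 higher, and 4 of the lower ones (HNRNPDL, COL18A1, KIF23 and ZNF326) and PLEKHM2 were past 0.6 on both scales. The log2 ratio of ZNF644 in I79 was -0.32 by TPM, while PDE10A was lower by TPM (28.5 and 19.8 against 8.85 and 6.13 TPM, log2 -1.68 in both isolates) and not by CPM (log2 0.14 and 0.06). PLEKHM2 was the gene that was higher, with 71.8 and 66.3 CPM young and 148 and 102 CPM old. The totals of EPB41L2 (303, 301, 298 and 354 CPM in I79 young, I79 old, I10 young and I10 old) and GAS2L1 (16.2, 16.3, 17.5 and 17.2 CPM) stayed within 0.25 on the log2 scale by CPM, and within 0.37 by TPM, while their top transcripts changed. In these bulk samples fewer cells that express a gene and less of its RNA per cell cannot be told apart.

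Regulators of splicing and 3' ends were measured in the same tables. Of 12 SR proteins, which promote the use of exons, 8 were lower in old cells past 0.6 in both isolates and none was higher. SRSF1 stood at 322 and 318 CPM in young and 102 and 113 CPM in old cells, and TRA2B at 188 and 189 against 68.4 and 90.1 CPM. Of 24 hnRNPs and other splicing regulators, 13 were lower and none higher, with HNRNPM at 235 and 238 CPM in young and 55.2 and 57.4 CPM in old cells and PTBP1 at 245 and 243 against 140 and 131 CPM. Lower values were found for 4 of 17 factors of 3' end processing, such as CSTF2T (34.7 and 33.3 against 16.5 and 16.2 CPM), and for 3 of 13 factors of nonsense-mediated decay, such as UPF3B, and higher values for none of either list. The share of lower genes among all 8024 was 14.7%, as above. No member is on these lists, which leave out the hnRNP HNRNPDL (log2 -0.62 in I79 and -1.01 in I10) and LUC7L3 (-0.20 and -0.19). The part of these factors in the changes of top transcript was not tested.

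The HMGB2_KD libraries were not used by the rule, so the totals of the 22 genes could be tested there. The tables hold counts per gene, so shares of transcripts after the knockdown are not analysed here. HMGB2 stood at 27.1 and 27.3 CPM in the WT and at 3.22 and 3.64 CPM in the HMGB2_KD libraries (log2 fold change -2.99, SE 0.16; edgeR gave an adjusted p of 8.28e-07). A gene was called where edgeR's adjusted p was below 0.01 and its fold change exceeded 0.6 on the log2 scale in either direction. By these limits 1 of the 22 genes was higher and 0 were lower, where among all 15338 genes the calls made up 2.86% (higher) and 2.34% (lower), or 5.2% together. Among the 22 genes 7 were higher and 0 lower at an unadjusted p under 0.05 by edgeR. Of all genes 23.9% passed this limit, counted in either direction. The 22 had met a read minimum in old and young cells that was not asked of the 15338, so the sets are unlike. DESeq2 called the same numbers of the 22 as edgeR, 1 higher and 0 lower.

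The gene called was HAPLN3. It had 10.5 and 10.6 CPM in the WT and 16.7 and 24.6 CPM in the HMGB2_KD libraries (10.6 ± 0.0648 and 20.6 ± 5.6, SD, n = 2), with no overlap between the groups. The log2 fold change was 0.97 (SE 0.18, adjusted p = 0.00369 by edgeR). Without the second HMGB2_KD library it was 0.66 with an adjusted p of 0.0399 by edgeR, and no member was then called. KRT8 stood at 11.2 and 11.3 against 14.9 and 21.7 CPM (log2 fold change 0.70, SE 0.18, adjusted p = 0.0227 by edgeR) and COL18A1 at 665 and 649 against 860 and 1138 CPM (0.60, SE 0.16, adjusted p = 0.0254 by edgeR). Neither passed the threshold on the adjusted p, although their groups did not overlap. Without the first HMGB2_KD library both were called by edgeR, KRT8 at 0.93 (adjusted p = 0.00261) and COL18A1 at 0.78 (adjusted p = 0.00755). Without the second they stood at 0.41 (adjusted p = 0.187 by edgeR) and 0.39 (adjusted p = 0.174 by edgeR). The other 19 genes had log2 fold changes from -0.23 to 0.53. The total of KIF23, lower in both old tables, was 23.1 and 28.3 CPM without and 28 and 24.7 CPM with the knockdown, with overlapping groups. HNRNPDL, also lower in old cells, had 253 and 248 against 227 and 217 CPM (log2 fold change -0.17, SE 0.13).

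By edgeR, none of the 12 SR proteins, 24 splicing regulators, 18 factors of 3' end processing and 14 factors of nonsense-mediated decay tested was called after HMGB2_KD. At an unadjusted p under 0.05 there were 1, 7, 3 and 1 of them, and DESeq2 called none. All gene lists were chosen with earlier results of these data known, so no contrast between them is drawn. Among all 15338 genes, 2.86% were called higher and 2.34% lower. On the other lists, 11 of 27 genes of the actin cytoskeleton and adhesion were called higher and 0 lower, and 9 of 19 matrix genes were called higher and 1 lower. For senescence and p53 genes these counts were 3 and 2 of 28, where HMGB2 itself is 1 of the 2 lower genes, and for chromatin genes 2 and 1 of 17.

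**Figure D4:**
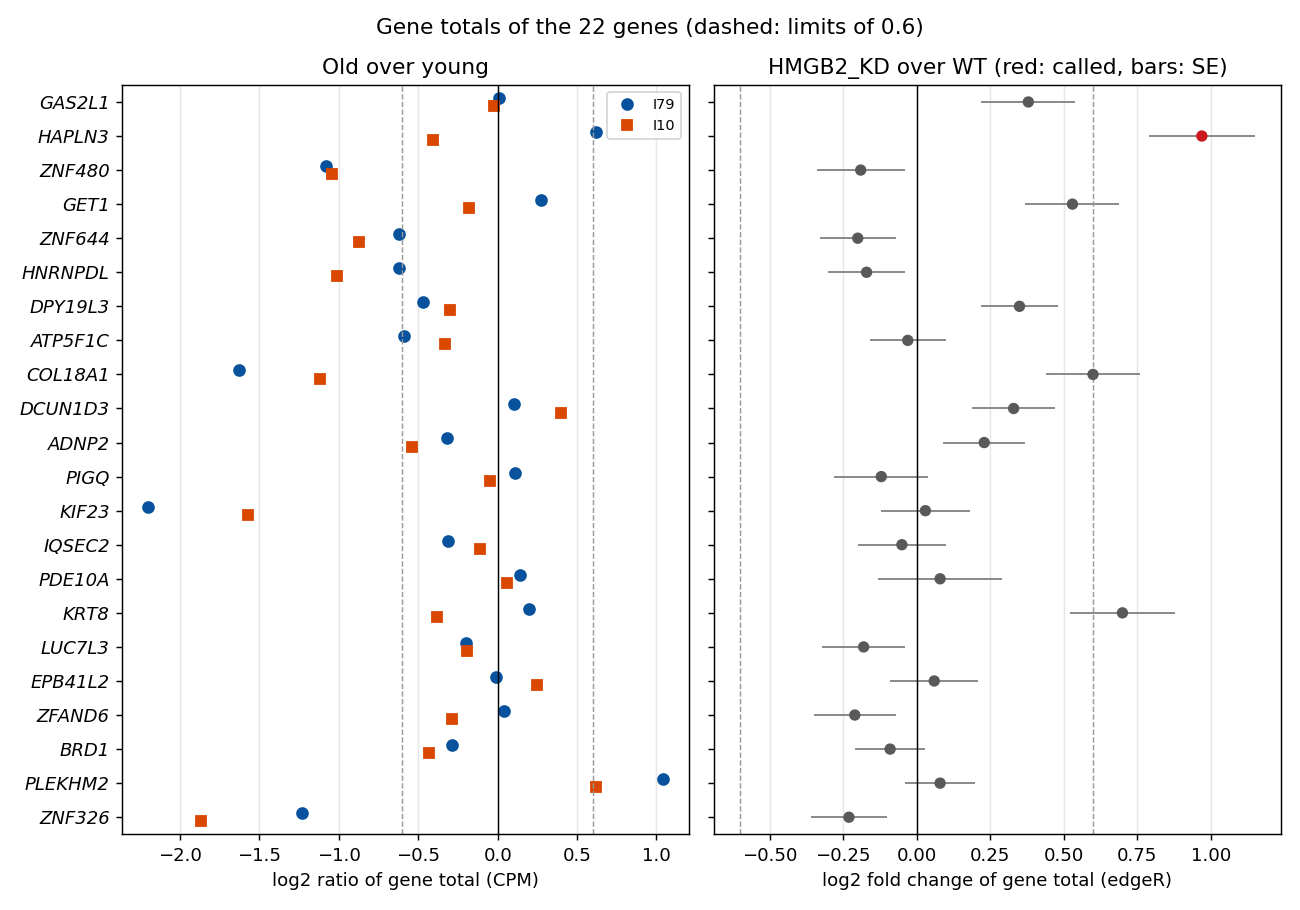
Log2 ratio of gene totals by CPM in the 22 genes, old over young for I79 (circles) and I10 (squares) on the left and HMGB2_KD over WT on the right, where bars are standard errors and red marks the gene called; dashed lines stand at -0.6 and 0.6. KIF23, ZNF326 and COL18A1 lie farthest to the left for old over young, with PLEKHM2 to the right, while ZNF480 lies to the left by CPM but not by TPM, and HAPLN3 at 0.97 lies farthest to the right after HMGB2_KD.

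The I79_ICM libraries can be set against I79 young only as levels, because reads were assigned to genes in another way and no test was run. Of the 21 members matched by symbol (GET1 was not), 4 were higher and 9 lower past 0.6 on the log2 scale, where 19.6% of 7849 genes were higher and 30.0% lower. GAS2L1 had 58.2 and 54.5 CPM in the ICM libraries and 17.7 CPM in I79 young, on the scale of genes shared by the tables. KIF23 had 9.55 and 9.5 CPM against 73.9 CPM (log2 -2.93), and HNRNPDL had 59.6 and 65.6 CPM against 371 CPM (log2 -2.57). PLEKHM2 had 142 and 137 CPM against 78.6 CPM. The 2 ICM libraries lay close together in each of these genes, but the way of counting and the treatment cannot be told apart.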

How the data were processed

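Poly(A) RNA libraries were analysed as deposited. For old and young cells the authors deposited 1 table per group of estimated counts (NumReads), TPM and effective length for 205259 transcripts, in the layout of salmon output. The quantifier and annotation release are not given in the sources used here. For WT and HMGB2_KD the authors deposited raw counts per gene, and for ICM estimated counts per gene and region. Per the submitters' processing notes, STAR 2.6.0c, featureCounts, DESeq2 and deepTools were used with GRCh37. Rows of the WT and HMGB2_KD tables that name no gene held 16.9% to 18.0% of the counts and were left out.

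Transcripts were matched to genes by GENCODE release 44 lifted to GRCh37 (97.7% of IDs, 97.2% to 97.4% of reads). Transcript lengths equalled the release in 85.9% of cases, and for both top transcripts in 7 of the 22 genes, so exon ends come from that release. Intervals of shares are exact Clopper-Pearson 95% intervals on reads, carried to TPM through effective lengths. They cover counting error only, not the assignment of reads between transcripts. CPM ratios used a prior count of 2.

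HMGB2_KD was tested against WT with edgeR 4.0.16 in R 4.3.3 (TMM, filterByExpr, quasi-likelihood test, Benjamini-Hochberg adjustment over 15338 genes). DESeq2 1.42.0 was an alternative. Replicates differed by more than sampling noise (chi-square per degree of freedom 27.1 in WT and 41.4 in HMGB2_KD). Nothing in the labels says that they were separate cultures, so p-values measure only the spread between these libraries. On simulated counts of 15005 genes, 66.5% of 200 genes changed by 1.5 (log2) were recovered with 0 false calls. On simulated tables of old and young cells, 98.8% of 165 exchanged top transcripts were found with 0 false calls. These tables were drawn from I79 young for both isolates, and only transcripts far apart in share were exchanged. They held no difference between isolates and no assignment of reads between similar transcripts, so they cannot measure errors from either.

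The members and gene lists were chosen with earlier results of these data known. Genes were named by a rule: the 12 largest smaller falls, the 4 largest in each class, members on a gene list (none), genes called after HMGB2_KD, 3 genes on each side of the limit, and HMGB2. KRT8, EPB41L2 and ZFAND6 fall outside it and were described after their values were seen, so that every member is accounted for.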

Additional observations from a re-analysis of the deposited data

Results flagged for a closer look

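In 3 of the 22 genes the total by CPM moved in opposite directions in the isolates, by at least 0.1 on the log2 scale in each. The log2 ratio of old to young for HAPLN3 was 0.62 in I79 and -0.41 in I10. It was 0.27 in I79 and -0.18 in I10 for GET1, and 0.20 in I79 and -0.38 in I10 for KRT8. By summed TPM the ratios were 0.43 and -0.37 for HAPLN3 and 0.11 and -0.23 for KRT8, but 0.72 and 0.37 for GET1, both above 0. Each rests on 1 table per group, and the difference between the isolates was not tested. The top transcripts of these genes changed in the same direction in both isolates, as the rule required.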

How the results depend on the processing

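The number of genes that changed their top transcript depended on the limits. It was 22 as reported, 47 with a minimum fall of 0.15 and 3 with 0.35. With a minimum of 50 reads it was 45, and with 1000 reads 6. In I79 alone it was 190 and in I10 alone 137. With transcripts of the same coding sequence summed it was 14, of which 13 were among the 22. With starts within 100 bases summed it was 10, with 8 of the 22. Coding transcripts not annotated for nonsense-mediated decay gave 26 genes, with 17 of the 22. By NumReads in place of TPM it was 19, with 14 of the 22. Of alternatives chosen after seeing the data, asking for both TPM and NumReads gave 14 genes. Leaving out transcripts under 300 bases kept 19 of the 22, and leaving out incomplete transcripts kept 19. By NumReads the fall of ADNP2 turned to -0.5 points. A tolerance of 50 or 500 bases for a shared start gave 14 or 9 genes with another start, against 11. At 50 bases the coding sequence changed with the same start in 3 genes, against 6, and with another start in 7, against 4. Genes called after HMGB2_KD numbered 797, and between 312 and 999 when a library was left out (312 without the second HMGB2_KD library). With the replicate number as a block they numbered 1243 in all and 2 among the 22, but the labels do not say that a number pairs libraries, and the deviations of libraries with the same number correlated at 0.17. Members called numbered 3 at an adjusted p under 0.05, 2 with no filter on low counts and between 0 and 3 when a library was left out. KRT8 (0.68 with the block, 0.69 with no filter) was the member gained. Among members that were not called, leaving out 1 library turned the sign, over ranges from -0.12 to 0.05 for ATP5F1C, from -0.41 to 0.11 for PIGQ, from -0.10 to 0.18 for KIF23, from -0.21 to 0.08 for IQSEC2, from -0.20 to 0.42 for PDE10A and from -0.13 to 0.28 for EPB41L2. The cause of these shifts was not tested. With sums of TPM in place of CPM the number of members with totals past 0.6 went from 7 to 6, but 5 members were past it on both scales: ZNF480 turned from -1.08 to 0.58 in I79 (log2), ZNF644 no longer passed, and PDE10A passed by TPM alone. Another prior count left 7 members, and the ICM count was 13 under each alternative run.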
